A study of Mus musculus with 2 samples.

Results

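Polycomb repressive complex 2 (PRC2), the MLL family of histone methyltransferases and the demethylase Kdm6b write and erase opposing marks on histone H3. The 10 genes described here, of 55536 annotated genes measured, are Ezh1, Ezh2, Eed, Suz12, Jarid2, Kmt2a, Kmt2b, Kmt2c, Kmt2d and Kdm6b. They were listed by name and matched by their GENCODE M21 gene identifiers; the rule itself uses no measured value. The cells were mouse regulatory T cells, a CD4 lineage specified by the transcription factor Foxp3 that holds immune responses in check, taken as primary cells from an adult male aged 4 months. Its strain, Foxp3CreERT2 x Rosa26YFP, combines a Foxp3 allele that drives a tamoxifen-inducible Cre with a YFP reporter at Rosa26, so Foxp3-expressing cells were the cells that could carry active Cre. The labels give no sort, gate or tamoxifen treatment, and name a bone marrow haematopoietic cell as the origin. PolyA plus RNA was sheared on a Covaris instrument and sequenced as 2 technical libraries of 1 biological sample, called library 1 and library 2. They form 1 group, so the data give levels in these cells and no difference between conditions, and every SD (n = 2) is technical.

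PRC2 places H3K27me3, the methyl mark of stably silenced genes. Its catalytic subunit is either Ezh2 or Ezh1, Eed and Suz12 are needed for activity, and accessory subunits such as Jarid2 help to direct the complex to chromatin. The MLL enzymes methylate lysine K4 of histone H3 at active genes: Kmt2a (MLL1) and Kmt2b (MLL2) work with menin mostly at promoters, and Kmt2c (MLL3) and Kmt2d (MLL4) work mostly at enhancers in a complex that also holds the H3K27 demethylase Kdm6a. Kdm6b (Jmjd3) is a second H3K27 demethylase. In regulatory T cells Ezh2 is known for its part in keeping Foxp3-repressed genes silent after activation, and Kmt2d for its part in regulatory T cell development.

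Library 1 held 15821875 estimated counts on genes and library 2 held 16153671. The defining genes of the labelled cell type were present: 6 of 6 regulatory T cell markers reached 1 TPM (transcript abundance scaled for length and for the library's total) in both libraries, with Foxp3 at 43.2 and 36.2 TPM. Of the Foxp3 level, 10.9 TPM in library 1 and 11.3 TPM in library 2 lay on protein-coding transcripts. Of the other cell types looked for, 2 of 2 CD8 T cell markers, 1 of 5 B cell markers (Cd79b), 1 of 6 myeloid markers (Cd68), 0 of 4 dendritic cell markers and 1 of 5 progenitor markers (Gata1) reached that level. Itgax and Mpo had 0 counts in both libraries. Summed over the list, the B cell markers stood at 35.1 and 35.3 TPM, the myeloid markers at 5.56 and 3.77 TPM and the dendritic cell markers at 0.53 and 1.14 TPM in library 1 and library 2. The CD8 T cell markers summed to 12.97 and 16.2 TPM and the progenitor markers to 35.7 and 33.2 TPM. Most of the progenitor sum was Gata1, at 34.9 and 32.4 TPM, and most of the B cell sum was Cd79b, at 33.2 and 33.3 TPM. All 8 proliferation markers reached 1 TPM, with a median of 13.9 TPM. In such a bulk sample a lower level from fewer cells of a type and one from less RNA per cell cannot be told apart, and the share of the members' RNA that came from other cells was not tested.

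All 10 genes were expressed, which here means at least 1 TPM in each library, and all 10 also passed 5 TPM. Of all annotated genes 24.3% passed 1 TPM, and of protein-coding genes 46.5% passed 1 TPM and 37% passed 5 TPM. The median of the 10 mean levels was 29.7 TPM, beside 18.5 TPM over the 10251 expressed protein-coding genes. By TPM the highest level was 3.22 times the lowest. The spread was wider by other quantities: over protein-coding transcripts alone the means ran between 6.81 TPM for Kmt2b and 39.6 TPM for Eed. In the smaller gene table, which holds whole-number counts on an earlier annotation, taken here per base, they ran between 5.88 for Kdm6b and 178 for Eed. Per base here means per base of the gene's effective length deposited with the estimated counts, which follows the estimated transcript shares. It is not a length of the smaller table's own. The TPM levels covered the range between the percentiles 44.3 (Kmt2b) and 75.5 (Eed) of expressed protein-coding genes. The SD between libraries was at the median 7.14% of the mean for the 10 genes and 7.42% for expressed protein-coding genes.

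**Figure D1:**
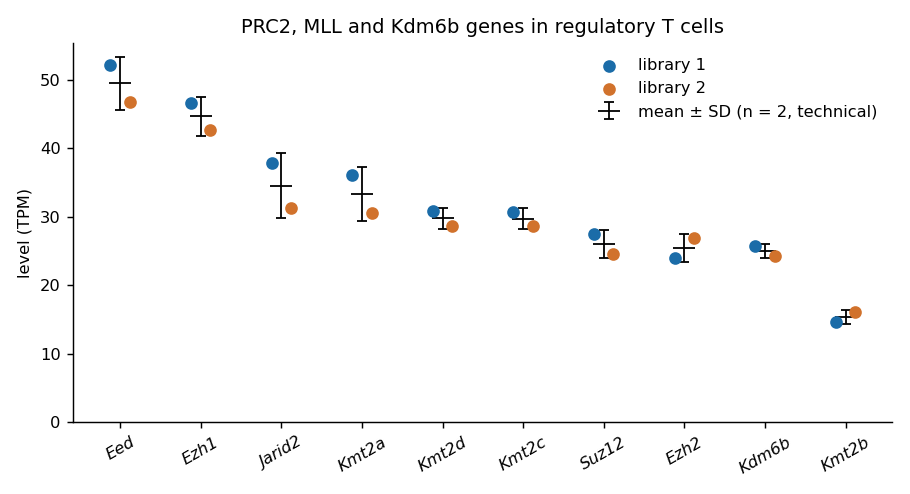
Level of each of the 10 genes in TPM (vertical axis, starting at 0), with library 1 left of library 2 for each gene and the mean ± SD of the 2 technical libraries as a bar. Eed and Ezh1 stand highest, at means of 49.5 and 44.6 TPM, and Kmt2b lowest, at 15.4 TPM.

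Of the PRC2 catalytic pair, Ezh1 was the more abundant. Ezh1 (ENSMUSG00000006920.14, mm10 chr11:101191115-101226463, minus strand) had 46.7 TPM in library 1 and 42.6 TPM in library 2, from 1989 and 1969 estimated counts, a mean of 44.6 ± 2.85 TPM. Ezh2 (ENSMUSG00000029687.16, mm10 chr6:47530139-47595341, minus strand) had 23.9 and 26.9 TPM, from 444 and 509 counts, a mean of 25.4 ± 2.10 TPM. Both Ezh2 values lay below both Ezh1 values. The Ezh2 to Ezh1 ratio was 0.513 in library 1 and 0.631 in library 2, a mean of 0.572 ± 0.084. With TPM summed over protein-coding transcripts alone, Ezh2 stood further behind, at 9.81 and 11.7 TPM in library 1 and library 2, and the ratio was 0.297. In the smaller gene table per base the ratio was 0.900, closer to parity. Before division by length, that table held 312 and 350 counts for Ezh2 and 862 and 884 for Ezh1, so the 0.900 depends on the effective lengths.

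Ezh1 and Ezh2 are paralogs, so their sequences are shown to let the reader see how far reads can be told apart. Aligned over their coding bases, Ezh1-202 (2241 bases) and Ezh2-201 (2238 bases) were identical at 69.3% of 2166 aligned positions, and the longest identical run was 17 bases. No 50-base window of either gene's transcripts occurred in the other's. The most alike stretch of 90 bases that lies within 1 exon of each gene had 74 identical bases, with the 16 differing bases in capitals (GENCODE M21 transcripts, mm10, minus strand, chr11:101195606-101195695 for Ezh1 and chr6:47540764-47540853 for Ezh2):
Ezh1: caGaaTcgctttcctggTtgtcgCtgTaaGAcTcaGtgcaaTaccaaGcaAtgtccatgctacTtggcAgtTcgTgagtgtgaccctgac
Ezh2: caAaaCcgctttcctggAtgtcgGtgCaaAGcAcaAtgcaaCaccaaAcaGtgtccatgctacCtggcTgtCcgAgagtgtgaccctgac
The last 15 bases of the stretch are the same in both genes.

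Among the partners of the catalytic subunits, Eed stood above Suz12. Eed (ENSMUSG00000030619.9, mm10 chr7:89954654-89980983, minus strand), the subunit that binds H3K27me3 and stimulates the enzyme, had the highest mean of the 10 genes, 49.5 ± 3.87 TPM, with 52.2 TPM in library 1 and 46.8 TPM in library 2 from 786 and 857 counts. Suz12 (ENSMUSG00000017548.15, mm10 chr11:79993106-80034123, plus strand), the scaffold of the complex, had 27.5 and 24.6 TPM from 1015 and 949 counts, a mean of 26.03 ± 2.06 TPM. The library values of Eed did not overlap those of Suz12. Summed, Ezh1 and Ezh2 were 1.42 ± 0.10 times Eed and 2.70 ± 0.19 times Suz12. In the smaller gene table per base they were 5.26 times Suz12. Jarid2 (ENSMUSG00000038518.15, mm10 chr13:44729474-44921643, plus strand) had 37.9 and 31.2 TPM from 1791 and 1484 counts, a mean of 34.5 ± 4.69 TPM, the widest SD of the 10 relative to its mean (13.6%).

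In the MLL family, by TPM, Kmt2a, Kmt2c and Kmt2d lay close together and Kmt2b lay below them. Kmt2a (ENSMUSG00000002028.13, mm10 chr9:44803355-44881296, minus strand) had 36.1 and 30.5 TPM from 6031 and 5651 counts, a mean of 33.3 ± 3.95 TPM. Its paralog Kmt2b (ENSMUSG00000006307.16, mm10 chr7:30568858-30588726, minus strand) had 14.7 and 16.1 TPM from 614 and 637 counts, a mean of 15.4 ± 0.99 TPM. The Kmt2a to Kmt2b ratio was 2.46 in library 1 and 1.90 in library 2, a mean of 2.18 ± 0.40. It was 4.86 over protein-coding transcripts alone, where Kmt2b stood at 6.83 and 6.78 TPM. In the smaller gene table per base the ratio was 1.16, and there Kmt2b, at a mean of 59.8, stood above Kmt2d, at 13.96. Before division by effective length, that table held 2387 and 2166 counts for Kmt2a and 451 and 464 for Kmt2b.

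The enhancer pair had near-equal TPM. Kmt2d (ENSMUSG00000048154.17, mm10 chr15:98831669-98871204, minus strand) had 30.9 and 28.7 TPM from 7581 and 7387 counts, a mean of 29.8 ± 1.54 TPM. Kmt2c (ENSMUSG00000038056.15, mm10 chr5:25271798-25498783, minus strand) had 30.8 and 28.6 TPM from 3790 and 3583 counts, a mean of 29.7 ± 1.53 TPM. Their library values overlapped, and the Kmt2d to Kmt2c ratio was 1.00 in each library. In counts, which are not per length, Kmt2d stood at 2.00 times Kmt2c in library 1 and 2.06 times in library 2. The ratio of levels moved to 1.53 when counts were divided by the length of the longest protein-coding transcript, and to 0.131 in the smaller gene table per base, so the near-equal level holds for TPM and not for those quantities.

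Kdm6b (ENSMUSG00000018476.7, mm10 chr11:69398508-69413675, minus strand), which removes H3K27 methylation, had 25.7 and 24.2 TPM from 2094 and 2041 counts, a mean of 24.96 ± 1.06 TPM. Its paralog Kdm6a had 22.1 and 21.6 TPM, a mean of 21.9 ± 0.35 TPM. The Kdm6b to Kdm6a ratio was 1.16 in library 1 and 1.12 in library 2, and 2.11 over protein-coding transcripts alone. In the smaller gene table Kdm6b had 92 and 91 counts, and per base the same ratio was 0.0949, so the order of the pair turned round.

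By mean TPM the order was Eed, Ezh1, Jarid2, Kmt2a, Kmt2d, Kmt2c, Suz12, Ezh2, Kdm6b and Kmt2b. Library values did not overlap between the neighbours Eed and Ezh1, Ezh1 and Jarid2, Kmt2c and Suz12, or Kdm6b and Kmt2b. For Eed and Ezh1 the gap was small: the lower Eed value was 46.75 TPM and the higher Ezh1 value 46.65 TPM. The other 5 neighbouring pairs did not differ beyond the spread between libraries. The deposited credibility intervals, which belong to the posterior mean TPM, separated Kdm6b and Kmt2b in both libraries: 22.0 to 24.03 TPM against 11.3 to 16.4 TPM in library 1, and 20.7 to 22.8 TPM against 12.5 to 17.7 TPM in library 2. For Eed and Ezh1 they overlapped in both, at 43.2 to 55.6 TPM and 40.02 to 45.7 TPM in library 1. Those of Kmt2c and Suz12 also overlapped in both libraries, and those of Ezh1 and Jarid2 in 1 library. The intervals need not hold the TPM itself: in both libraries the TPM of Kmt2a, Kmt2c, Kmt2d and Kdm6b lay above their upper bounds, as did that of Ezh1 in library 1, at 46.7 TPM beside a posterior mean of 42.8 TPM.

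The order depended on how a gene's reads were turned into a level. Of the 45 pairs of genes, 43 kept their order with posterior mean TPM, 39 with protein-coding transcripts alone, 37 with counts per base of the longest protein-coding transcript and 33 with the smaller gene table per base. Eed and Ezh1 held positions 1 and 2, in either order, under TPM and the first 3 of these alternatives, and in the smaller table Eed stood at position 1 and Ezh1 at position 3. Kmt2b was last under 4 of the 5 and at position 7 in the smaller table. Jarid2 moved between position 3 by TPM and position 7 over coding transcripts, where it had 20.9 and 16.8 TPM.

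**Figure D2:**
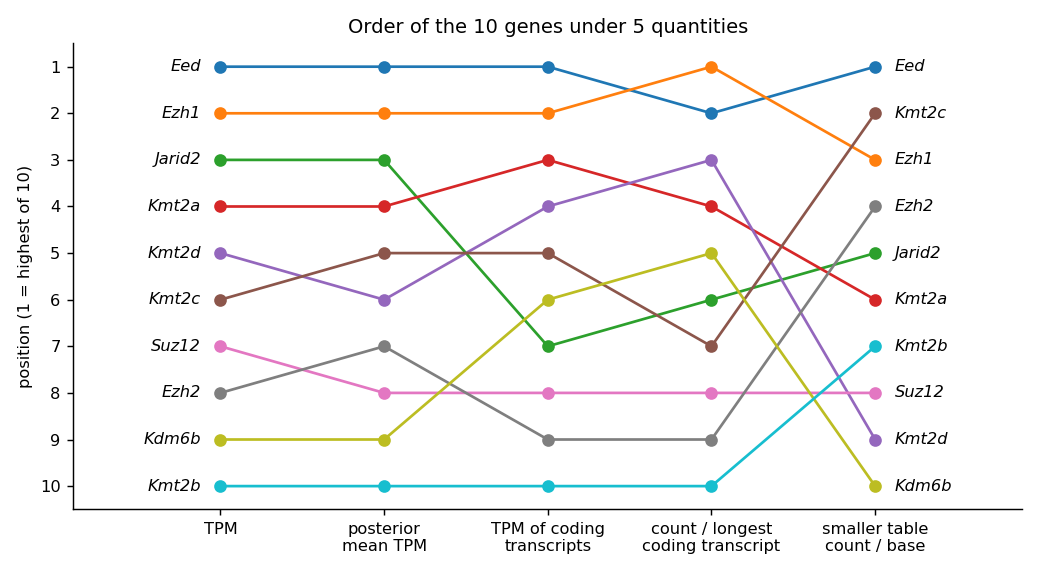
Position of each gene among the 10 (vertical axis, 1 is the highest mean of the 2 libraries) under 5 quantities from left to right; each line is 1 gene. The lines stay nearly flat between TPM and posterior mean TPM and cross most at the smaller gene table, where Kdm6b is at position 10 and Kmt2d at position 9.

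The smaller table held unlike shares of the genes' reads. Its counts were 4.43% of the estimated counts for Kdm6b and 8.81% for Kmt2d, and 67.5% for Kmt2c, 69.5% for Ezh2 and 73.1% for Kmt2b. Over the 5629 genes of that table whose estimated counts summed to at least 900, the median was 37.4%, and 5% of genes lay below 3.00%. The reason for these shares was not tested.

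The 10 genes have 85 annotated transcripts, and 25 reached 10% of their gene's TPM or count in a library, of which 17 were protein coding and 6 retained introns. The leading transcript by TPM was the same in both libraries for all 10 genes and was protein coding for 8 of them. The exceptions were Ezh2 and Kmt2b, which were led by short retained-intron transcripts. By estimated count, the leading transcript was protein coding for 10 of 10. TPM divides by length, so a short transcript takes a larger share of TPM than of counts. The median share on protein-coding transcripts was 80.9% of TPM and 94.8% of counts. Over the 10251 expressed protein-coding genes the median share of TPM was 84.3%, and 18.8% of these genes lay below 50%, as did Ezh2 (42.3%) and Kmt2b (44.4%).

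**Figure D3:**
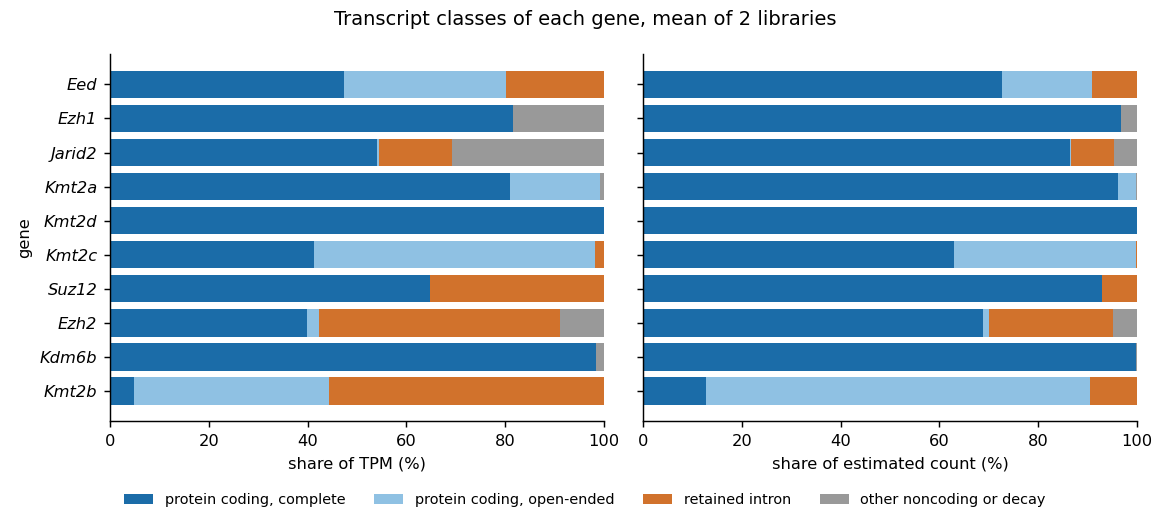
Share of each gene's TPM (left) and of its estimated count (right) on 4 classes of annotated transcript, as the mean of the 2 libraries, in percent; open-ended coding models lack an annotated start or end of the coding sequence. The retained-intron share is wide by TPM for Kmt2b (55.6%), Ezh2 (48.9%) and Suz12 (35.2%) and narrow by count (9.57%, 25.2% and 7.09%).

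Ezh2-213, a retained-intron model of 500 bases near the 3′ end of the gene, took 33.0% of Ezh2 TPM in library 1 and 31.2% in library 2, from 44.3 and 49.4 counts. The full coding transcript Ezh2-201 (2787 bases) took 20.5% and 31.0% of TPM from 167 and 298 counts, and the coding Ezh2-202 took 17.6% and 7.49%. Ezh2-213, compared here with Ezh2-201 alone, shares 449 of its bases with it. The bases that Ezh2-201 lacks, printed in capitals, are the 51 intron bases at the 5′ end of Ezh2-213 (mm10 chr6:47532066-47532116, minus strand), followed here by the first 24 shared bases:
Ezh2-213: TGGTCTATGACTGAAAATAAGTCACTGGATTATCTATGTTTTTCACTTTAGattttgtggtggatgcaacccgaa
The share of Ezh2-213 thus rests on the model's division of reads over a short stretch, and its intervals were wide: 3.79 to 10.2 TPM in library 1 and 4.00 to 11.4 TPM in library 2.

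Kmt2b-207, a retained-intron model of 571 bases, took 47.3% and 54.9% of Kmt2b TPM from 45.0 and 60.0 counts. The coding model Kmt2b-206 (6345 bases, without a complete coding start or end) took 40.3% and 38.8% of TPM from 462 and 511 counts, and the full Kmt2b-201 took 6.34% and 3.43%. Kmt2b-207 has 126 bases that Kmt2b-206 lacks, in 3 stretches. The longest is an intron of 85 bases, in capitals between 20 bases of each flanking exon (mm10 chr7:30570469-30570553 for the capitals, minus strand):
Kmt2b-207: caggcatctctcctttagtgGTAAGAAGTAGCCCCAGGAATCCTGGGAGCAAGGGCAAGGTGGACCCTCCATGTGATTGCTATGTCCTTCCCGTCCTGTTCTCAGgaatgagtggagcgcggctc
In counts this transcript held 8.38% of Kmt2b, against 77.8% for Kmt2b-206.

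Suz12 had the same pattern to a smaller degree. Suz12-206, a coding model of 15 exons with an annotated start and end, took 64.5% and 64.7% of TPM in library 1 and library 2. The retained-intron Suz12-203 took 30.2% and 31.2%, from 62.2 and 60.1 counts. These shares differed between libraries by less than 1 percentage point. Suz12-201, a longer coding model of 16 exons, took 0.36% and 0% of TPM. Its posterior mean share was 7.96% and 9.72%, beside 54.7% and 52.0% for Suz12-206. Jarid2-208 took 54.6% and 53.7% of Jarid2 TPM and 86.4% of its counts on average. Next to it stood Jarid2-206, annotated to nonsense-mediated decay, at 16.0% and 23.2% of TPM, and the retained-intron Jarid2-215, at 15.2% and 10.7%.

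Eed was divided between the full Eed-201, with 40.1% and 54.7% of TPM, and Eed-205, an open-ended coding model of 767 bases that lies wholly within Eed-201, with 35.5% and 30.01%. Kmt2c was led by Kmt2c-208, an open-ended coding model of 6443 bases at the 3′ end of the gene, with 52.5% and 49.99% of TPM. The full Kmt2c-201 (14967 bases) followed with 42.2% and 40.3% of TPM and held 63.0% of counts on average. Kdm6b and Kmt2d were each led by 1 full coding transcript, Kdm6b-201 with 99.1% and 97.7% of TPM and Kmt2d-202 with 96.2% and 96.1%. Kmt2d-202 had 84.7% and 84.4% by posterior mean, and Kmt2d-201, which lacks 7 of its bases, had 13.97% and 14.2%. The TPM of Kmt2d-202, 29.7 and 27.6, lay above the upper bounds of its intervals, 26.6 and 25.3 TPM. Ezh1-202 had 77.1% and 73.1% of Ezh1 TPM, a share that depended on the estimate. By posterior mean it had 45.04% and 44.94%, and Ezh1-203, from which it differs by 14 bases it has alone, had 30.2% and 30.9%. The TPM of Ezh1-202, 35.98 and 31.2, lay above its own intervals of 6.37 to 28.3 TPM in library 1 and 7.95 to 25.9 TPM in library 2.

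By TPM, Kmt2a-201 had the largest change of share between libraries among the transcripts of the 10 genes. By count the largest was that of Ezh2-201, with 37.7% in library 1 and 58.6% in library 2. Kmt2a-202 took 13.8% of TPM from 1015 counts in library 1 and 0.42% from 27.7 counts in library 2, while Kmt2a-201 took 66.4% and 81.4%. Both transcripts are full coding models that differ by 9 bases, shown in capitals (mm10 chr9:44833898-44833906, minus strand), with the same junction in Kmt2a-201 below:
Kmt2a-202: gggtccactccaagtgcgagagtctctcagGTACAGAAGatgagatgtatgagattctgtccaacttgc
Kmt2a-201: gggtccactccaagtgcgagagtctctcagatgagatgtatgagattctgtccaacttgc
The posterior intervals of Kmt2a-202 were 3.54 to 18.3 TPM in library 1 and 0.786 to 14.7 TPM in library 2, so they overlapped. By posterior mean Kmt2a-202 took 32.3% and 23.2%, and Kmt2a-201 47.2% and 56.2%.

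The open-ended coding models of Kmt2a, which begin near its 5′ end, also differed between libraries. Kmt2a-203 took 4.36% of TPM from 83.9 counts in library 1 and 17.7% from 302 counts in library 2, with intervals of 0.417 to 2.54 TPM and 3.55 to 5.84 TPM that did not overlap. Kmt2a-206 took 14.5% from 30.8 counts in library 1 and was at 0 in library 2, with intervals of 1.97 to 7.74 TPM in library 1 and up to 2.21 TPM in library 2, which overlapped. Summed, the complete coding transcripts of Kmt2a took 80.2% and 81.8% of its TPM.

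The other genes of these complexes were described from 4 lists. Of the other PRC2 subunits found in the annotation, 8 of 9 were expressed, with a median of 14.5 TPM. Rbbp4, a histone-binding subunit that PRC2 shares with other chromatin complexes, was highest at 252 and 234 TPM, of which 64.2 TPM on average lay on protein-coding transcripts. Its paralog Rbbp7 had 103 and 104 TPM. Epop, an accessory subunit, was lowest at 0.39 and 0.58 TPM.

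All 16 genes of the list for the MLL and SET1 complexes, which leaves out the members, were expressed, with a median of 22.4 TPM. Kmt2e, which is on the list as a relative of the MLL enzymes by sequence and not as a subunit, was highest. It stood at 174 and 177 TPM, with 27.9 TPM on average on protein-coding transcripts. Setd1a, a catalytic subunit of a SET1 complex, was lowest at 3.60 and 4.91 TPM. All 8 of the other H3K27 and H3K4 demethylases were expressed, with a median of 21.7 TPM, between Kdm5b (14.99 and 13.5 TPM) and Kdm5a (64.5 and 61.1 TPM), both H3K4 demethylases.

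Of the subunits of PRC1, the complex that ubiquitinates histone H2A and can bind H3K27me3, 18 of 19 were expressed, with a median of 8.05 TPM. Rnf2, its main ubiquitin ligase, was highest at 79.2 and 79.4 TPM, and Cbx2, a reader of H3K27me3, was lowest at 0.79 and 1.04 TPM. These medians describe the lists, and no test between them was made.

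**Figure D4:**
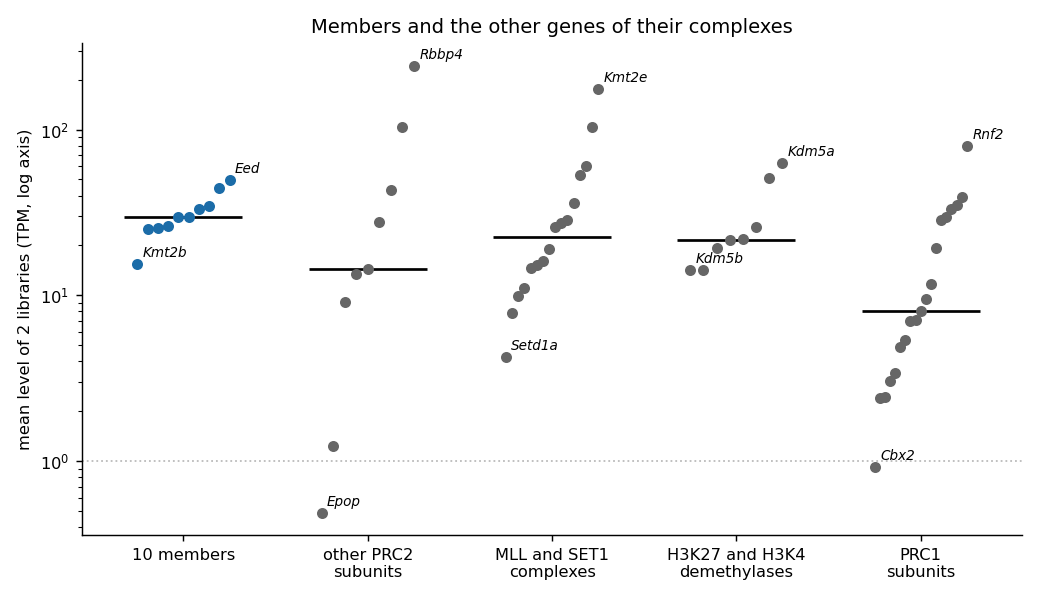
Mean level of the 2 libraries in TPM (log axis) for the 10 members at the left and for the other genes of 4 lists; each point is a gene, the black bars are medians, the dotted line is 1 TPM, and the lowest and highest gene of each group are named. The members span 15.4 to 49.5 TPM, a narrower range than that of the PRC2 partners, which runs between Epop at 0.485 and Rbbp4 at 243 TPM.

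Each gene's counts in library 1 and library 2 were set against each other by a two-sided exact binomial test, adjusted over 17458 genes by the Benjamini-Hochberg method. It compares technical libraries, and its p-values are too small, since the libraries varied beyond counting error by a coefficient of variation of 13.02%. Of the 10 genes 4 passed an adjusted p of 0.05, all higher in library 1, and 0 also changed by 1.5-fold. An unadjusted binomial p under 0.05 was found for 5 of the 10 and for 6064 of the 17458 genes tested. Among the 5866 genes whose counts summed to at least 900 it was found for 2754. Of all genes tested, 25.1% passed, 13.4% as higher in library 1 and 11.8% as higher in library 2, and 8.82% passed with a 1.5-fold change. Deeply counted genes pass more often: of the 5866 genes whose counts summed to at least 900, which all 10 members reached, 36.7% passed, 20.4% as higher in library 1, and 0.443% passed with a 1.5-fold change. The share of members that passed was therefore near the background.

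Jarid2 had a log2 ratio of library 1 over library 2 of 0.30 (exact binomial test, adjusted p = 9.21e-08), the widest of the 10. Kmt2a followed at 0.12 (exact binomial test, adjusted p = 5.17e-05), Kmt2c at 0.11 (adjusted p = 0.00616) and Kmt2d at 0.07 (adjusted p = 0.0194). With DESeq2 size factors Kmt2d no longer passed (exact binomial test, adjusted p = 0.155), and in the smaller gene table Kmt2c no longer passed (adjusted p = 0.248). Ezh2, at a log2 ratio of -0.17, and Eed, at -0.09, had lower counts in library 1 without passing (exact binomial test, adjusted p = 0.202 and 0.371). For Eed counts and TPM pointed opposite ways, with 786 and 857 counts but 52.2 and 46.8 TPM in library 1 and library 2. The remaining ratios were 0.13 for Suz12, 0.07 for Kdm6b, 0.05 for Ezh1 and -0.02 for Kmt2b.

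The median log2 ratio of the 10 genes was 0.07, beside 0.00 over all genes tested. Transcript length moved with the ratio across genes: among genes whose counts summed to at least 900, the eighth with the longest coding transcripts had a median of 0.09, with 253 of 703 genes passing as higher in library 1 and 51 as higher in library 2. The eighth with the shortest had a median of -0.08, with 24 passing as higher in library 1 and 229 as higher in library 2. Of the 10 members 5 belong to the longest eighth, which starts at 6574 bases. The part of length in the members' ratios was not tested.

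**Figure D5:**
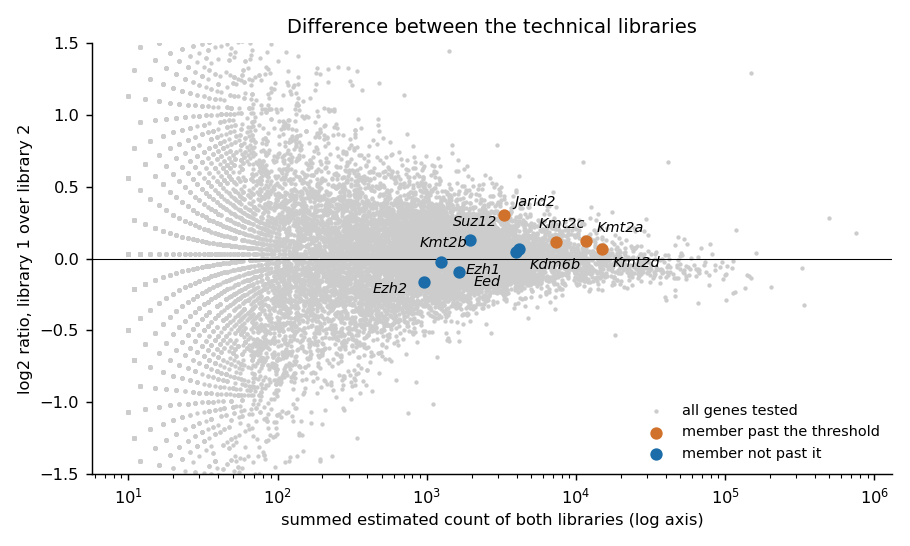
Log2 ratio of library 1 over library 2 (vertical axis, drawn to 1.5 in either direction; 1065 genes lie outside) against the summed estimated count of both libraries (log axis) for the 17458 genes tested, with the 10 members in colour. Orange members passed the exact binomial test; all lie above 0, with Jarid2 highest at 0.30.

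Sequence shared with other loci was limited. Of the 50-base windows in the members' transcripts, 1.69% were also found on the same strand in another gene's transcripts for Kmt2d, 0.307% for Eed and 0.093% for Ezh1, and 0 for the other 7 genes. Genes on the opposite strand overlap exons of 6 members: Ezh2, Eed, Suz12, Kmt2a, Kmt2c and Kdm6b. The overlap was widest for Eed, where 6.82% of exon bases are also exon bases of E230029C05Rik, which held 27 and 18 counts. Gm26563, opposite Suz12, held 133 and 118 counts over its exons. The strand setting of the quantification is not given in the sources used here, so reads of such pairs may not be told apart where exons overlap.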

How the data were processed

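PolyA plus RNA-seq of 1 biological sample was available as 2 technical libraries, on the mm10 assembly per the labels. Per the file headers, the authors deposited for each library a gene and a transcript table with the columns that RSEM writes: expected counts with no scaling, TPM values as maximum likelihood and posterior mean estimates, bounds of credibility intervals of the posterior TPM (a signal that is never negative), and the percent of a gene's TPM on each transcript. A second, smaller gene table with no header holds whole-number counts that the authors deposited. Aligner and versions: not given in the sources used here.

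Identifiers were joined to GENCODE M21 (55536 genes); spike-in sequences and features with numeric identifiers, 0.176% and 0.169% of counts in library 1 and library 2, were left out. Estimated counts were rounded for the exact binomial test, conditional on the sum of both libraries, for genes whose counts summed to at least 10, with TMM sizes from edgeR 4.0.16, Benjamini-Hochberg adjustment and log2 ratios with a prior count of 0.5. A count test with a dispersion per gene could not be fitted with 1 library on each side. The test was tested on simulated counts that held counting error alone. That trial therefore does not cover the variation between these libraries beyond counting error. DESeq2 1.42.0 gave the alternative size factors. Python 3.11.15 and scipy 1.17.1 were used. Depth sets the precision: intervals cover counting and assignment error only.

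The members and the gene lists were chosen with earlier results of these data known, although the rule that finds the members uses no measured value. Named genes are the 10 members, the highest and lowest gene of each list, and Kdm6a, Kmt2e, Rbbp4 and Rbbp7. By the same rule Ring1 and Phc1 of the PRC1 list are named in the closing section, as the genes that passed with a 1.5-fold change. A planned comparison of protein sequences was not run, and the coding bases of Ezh1 and Ezh2 were aligned in its place with Biopython.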

Additional observations from a re-analysis of the deposited data

How the results depend on the processing

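No paired analysis was possible because both libraries belong to 1 group. All 10 members stayed expressed at 5 TPM, with posterior mean TPM and in either library alone. The median member level was 29.7 TPM, and became 26.96 with posterior mean TPM, 40.7 with the longest coding transcript length, 77.6 with the smaller table per base and 26.9 with protein-coding transcripts alone, an alternative chosen after seeing the data. The values 40.7 and 77.6 are not on the scale of TPM. They were scaled to a fixed total over protein-coding genes alone and over the genes of the smaller table, so they differ from 29.7 TPM partly by construction. For the smaller table per base, the longest coding length and coding transcripts, Ezh2 over Ezh1 was 0.900, 0.363 and 0.297, Kmt2a over Kmt2b 1.16, 4.81 and 4.86, Kdm6b over Kdm6a 0.0949, 1.88 and 2.11, and Ezh1 plus Ezh2 over Eed 1.12, 1.62 and 1.19. Kmt2d over Kmt2c was 0.131, 1.53 and 1.02 under these, and 0.997 with posterior mean TPM, where Kdm6b over Kdm6a was 1.10. Ezh1 plus Ezh2 over Suz12 became 5.26 in the smaller table. Thus Kmt2d over Kmt2c and Kdm6b over Kdm6a crossed 1; the cause was not tested. Over single libraries the median level was 28.6 to 30.8 TPM, and the ratios spanned 0.513 to 0.631 for Ezh2 over Ezh1, 1.90 to 2.46 for Kmt2a over Kmt2b, 1.00 for Kmt2d over Kmt2c in each, 1.12 to 1.16 for Kdm6b over Kdm6a, 1.35 to 1.49 over Eed and 2.57 to 2.83 over Suz12. The median coding share of 80.9% of TPM spanned 77.7% to 84.0% and was 94.8% of counts. Members past the binomial test numbered 3 with DESeq2 size factors and 3 in the smaller tables, and 4 otherwise. Over all genes 4384 passed, 1539 with a 1.5-fold change; the smaller tables gave 1172 and 461, and testing only genes whose counts summed to at least 900, also chosen after seeing the data, gave 2301 and 26. For single members, 28 levels moved by more than 1 SD across the alternatives and 32 did not. Levels with the smaller table or the longest coding length are on their own scales, which enters these moves. The 32 include all single-library levels, which with n = 2 can never lie more than 1 SD from the mean. Of the library differences 57 kept direction and side of the threshold, and 2 lost the call. That of Ezh1, not called, changed sign to -0.044 on the log2 scale in the smaller tables. The cause of these shifts was not tested. Depth limits Ezh2 most, with 444 and 509 counts.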

Other observations

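Some genes of the 4 lists passed the exact binomial test between the technical libraries. Of the PRC1 subunits 5 of 19 passed, all higher in library 1, and 2 of 19 passed with a 1.5-fold change. Of all genes tested 25.1% passed, 13.4% as higher in library 1, and 8.82% passed with a 1.5-fold change. The 2 PRC1 genes with a 1.5-fold change, which is judged on scaled counts, were Ring1, a ubiquitin ligase of PRC1, and Phc1, a Polyhomeotic subunit. Ring1 had 80 counts in library 1 and 45 in library 2, a log2 ratio of 0.85, at 3.09 and 1.70 TPM. Phc1 had 248 and 167 counts, a log2 ratio of 0.60; its TPM, 5.63 and 4.18, differed by less. Of the other PRC2 subunits 1 of 9 passed, of the MLL and SET1 list 2 of 16, and of the demethylases 1 of 8. Uty, the Y-linked relative of Kdm6a, stood at 51.8 and 50.8 TPM, above Kdm6a at 22.1 and 21.6 TPM; it is named here after its value was seen.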
